A study of Mus musculus with 4 samples.

Results

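The expression of 40 listed genes of the amino acid stress response and of tRNA charging was described in group 3 innate lymphoid cells (ILC3s) sorted from the mouse small intestine. The 40 are 20 genes linked to the transcription factor ATF4 and 20 genes of the cytosolic aminoacyl-tRNA synthetases, chosen by name. Of the 40 genes, 37 were tabulated among the 15242 rows of the first pair of libraries and 39 among the 12546 rows of the second; the 2 tables together held 18191 names. Trib3, Sesn2 and Cth were not found under these names in the first table, nor Cth in the second, where methionyl-tRNA synthetase (Mars) is listed under its newer symbol, Mars1.

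The first pair set ILC3s of Il17d-KO mice, which lack the cytokine IL-17D, beside ILC3s of Wild type (WT) mice. The second set CD93+ ILC3s beside CD93- ILC3s, both from WT mice; CD93 is a surface glycoprotein. Each of the 4 groups was at steady state and had 1 library, sorted per the design text as live cells with low CD45, without CD3 and with high CD90.2, among other markers. The labels of all 4 libraries carry the same note, of a 12 h culture without stimulation ahead of the CD93 sort, and do not say apart from it whether the KO and WT cells were cultured. They state neither strain nor age, nor whether cells of several mice were pooled. The values are FPKM, the fragments per kilobase of gene scaled to the reads of the library, which can be compared between genes. The 2 tables were made separately, so each comparison stays within its table.

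Cells that run short of an amino acid, or whose endoplasmic reticulum is stressed, phosphorylate the translation factor eIF2 alpha. Most protein synthesis then slows, while the mRNA of ATF4 is translated more, and ATF4, with partners of the C/EBP family, raises genes that make, import and charge amino acids. Aminoacyl-tRNA synthetases attach each amino acid to its tRNA, and many of their genes are known targets of ATF4. Lymphocytes draw on the same enzymes when they grow and secrete cytokines.

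ATF4 and C/EBP factors bind a composite DNA element whose core is TGATGNAA. This motif was searched on both strands of RefSeq promoter windows (GRCm38.p6, from 250 bases before to 50 bases after the start), as the only motif, and 31 of the 40 genes had a window. Those without were Cth, Eif4ebp1, Cars, Hars, Lars, Nars, Rars, Vars and Wars. It was present in 9 of these 31 genes (29.0%), that is 4 of 18 ATF4-linked genes (22.2%) and 5 of 13 synthetases (38.5%). Among all 27025 genes with a window the share was 4.51%, and 3.97% of all 32851 windows held it. In 6 genes the motif lay ahead of the RefSeq start, and these stretches are shown because several of the results below turn on these genes. In Asns and Aars this place lies within the longer gene span of GENCODE M21. Capitals mark the motif, or its reverse complement where it lies on the other strand, and each line is on the gene's own strand.
Asns, chr6:7693210-7693248, minus strand: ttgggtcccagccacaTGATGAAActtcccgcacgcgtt
Pycr1, chr11:120643828-120643867, minus strand: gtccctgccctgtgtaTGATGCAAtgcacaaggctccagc
Chac1, chr2:119351033-119351072, plus strand: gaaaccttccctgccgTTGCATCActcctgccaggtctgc
Aars, chr8:111033714-111033753, plus strand: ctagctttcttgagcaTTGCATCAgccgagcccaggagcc
Gars, chr6:55037955-55037994, plus strand: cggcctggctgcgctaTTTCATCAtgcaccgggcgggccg
Tars, chr15:11399659-11399689, minus strand: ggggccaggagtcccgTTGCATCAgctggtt

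The first base of the motif lay 23 bases before the start in Asns, 103 in Pycr1, 193 in Chac1, 112 in Aars, 30 in Gars and 15 in Tars. In Iars, Trib3 and Yars it lay only after the start, and Aars had a further match there. A match describes the sequence and does not show that a factor binds it.

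Before the comparisons, the libraries were checked. No value of the deleted gene, Il17d, is given here, and no other check of the genotype was made. Cd93 had an FPKM of 155 in CD93+ and 79.9 in CD93- ILC3s. All 9 ILC3 markers examined, among them Il7r and Il23r, were above 0 in all 4 libraries. The totals behind the FPKM scaling ran from 11712846 to 27002581, and reads were recovered for 9844 of 10117 measured genes in the CD93 pair and for 8323 of 12376 with KO and WT. A gene counts as measured where either library of its pair had at least 1 FPKM, and a difference is that of log2(FPKM + 1), which understates differences of genes at low levels; 2-fold means a difference of at least 1. Folds of single genes are FPKM ratios, with 95% exact (Clopper-Pearson) intervals from the recovered reads in parentheses. The intervals cover counting error only, since there is no replicate, and they compare libraries, not conditions. In sorted bulk samples, fewer cells of a type and less RNA per cell cannot be told apart.

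In CD93+ ILC3s, tRNA synthetase genes were higher nearly throughout, by modest amounts, and Psat1 of serine synthesis and Asns of asparagine synthesis were the only ones of the 40 past 2-fold on the log2(FPKM + 1) scale. Of the 20 synthetases, 19 had higher values in the CD93+ library, against 54.4% of the 10117 measured genes. Their median difference was 0.41, beside 0.04 over all measured genes. None reached 2-fold, where 4.43% of measured genes did so in either direction. Of the 18 measured ATF4-linked genes, 2 were at least 2-fold higher (background 2.49%) and 0 at least 2-fold lower (background 1.94%), and 13 had higher values, with a median of 0.26. Atf4 itself was nearly level.

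The transcription factors of the response did not go one way. Atf4 (ENSMUSG00000042406.8; mm10 chromosome 15, 80255184 to 80257541, plus strand) had 218.5 FPKM in CD93+ and 212 in CD93- ILC3s, a ratio of 1.03 (0.995 to 1.07), and was the highest of the ATF4-linked genes in both libraries. Atf5, a related factor that is also translated under stress, was 1.54-fold higher in CD93+ ILC3s (1.42 to 1.66), from 70.2 and 45.6 FPKM. Ddit3, which encodes the stress factor CHOP, was 1.66-fold lower (1.46 to 1.90), with 18.1 and 30.1. Its locus (ENSMUSG00000025408.15; chromosome 10, 127290774 to 127296288, plus strand) overlaps a second annotated gene of the same name, and reads shared with it could not be separated. The C/EBP partners of ATF4 had nearly equal values, with an FPKM of 58.0 and 59.3 for Cebpb and of 11.4 and 12.6 for Cebpg, and both intervals held 1. Trib3, a pseudokinase that binds ATF4 and dampens it, had 7.51 and 6.71, and its interval held 1 as well (0.905 to 1.39).

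Of the 9 measured enzymes of amino acid and one-carbon metabolism, 8 had higher values in CD93+ ILC3s, with a median difference of 0.55. Of all measured genes, 54.4% had higher values. Of the 6 factors and regulators, 3 were higher and 3 lower. The roles were assigned with these values known, so the split between them is a description only. Psat1 (ENSMUSG00000024640.9; chromosome 19, 15904678 to 15947337, minus strand) encodes the aminotransferase of serine synthesis and had an FPKM of 6.30 in CD93+ and 1.58 in CD93- ILC3s. It was 4.001-fold higher (3.12 to 5.19; 314 and 79 reads). Asns (ENSMUSG00000029752.12; chromosome 6, 7675169 to 7693254, minus strand), which encodes asparagine synthetase, was 2.76-fold higher (2.10 to 3.66), from 6.24 and 2.26 FPKM. These were the only measured ATF4-linked genes past 2-fold. Phgdh, the first enzyme of serine synthesis, was 1.57-fold higher (1.26 to 1.96; FPKM 7.28 and 4.64). Psph, the phosphatase of the last step, had 2.68 and 2.35, with an interval that held 1 (0.886 to 1.47). The first 2 of the 3 enzymes of this route thus had intervals above 1, and the last did not.

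Mitochondrial enzymes of folate one-carbon metabolism, which take up the serine carbon, had a similar size of difference. Shmt2 was 1.60-fold (1.44 to 1.79; FPKM 23.4 and 14.6), Mthfd2 1.65-fold (1.45 to 1.89; 14.4 and 8.73) and Mthfd1l 1.28-fold higher (1.07 to 1.52; 5.74 and 4.49). Shmt1, the cytosolic counterpart of Shmt2, had lower values in CD93+ ILC3s, with 2.26 and 2.84, and its interval held 1 (0.961 to 1.64 as a fold lower). In proline synthesis, Aldh18a1 was 1.18-fold higher (1.04 to 1.33), and Pycr1, the next enzyme, had 36 and 8 reads. The Pycr1 ratio was 4.53 (2.07 to 11.3), at an FPKM of 0.781 and 0.172, below the limit for a measured gene.

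The remaining ATF4-linked genes serve redox balance and growth control. Chac1, which encodes an enzyme that breaks down glutathione, had 20 and 5 reads, a ratio of 4.03 with a wide interval (1.47 to 13.7). Because its FPKM was 1.04 and 0.259, its difference of 0.70 on the log2(FPKM + 1) scale stayed under 2-fold. Eif4ebp1, whose product 4E-BP1 holds back cap-dependent translation, was 1.49-fold higher (1.23 to 1.82; FPKM 10.1 and 6.76). Sesn2, a leucine sensor that restrains mTORC1, was 1.31-fold lower (1.08 to 1.61; 4.32 and 5.69). So within the ATF4-linked list 10 of 18 intervals lay above 1 and 2 below, against 34.2% and 25.8% of the 9844 measured genes with recovered reads.

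**Figure D1:**
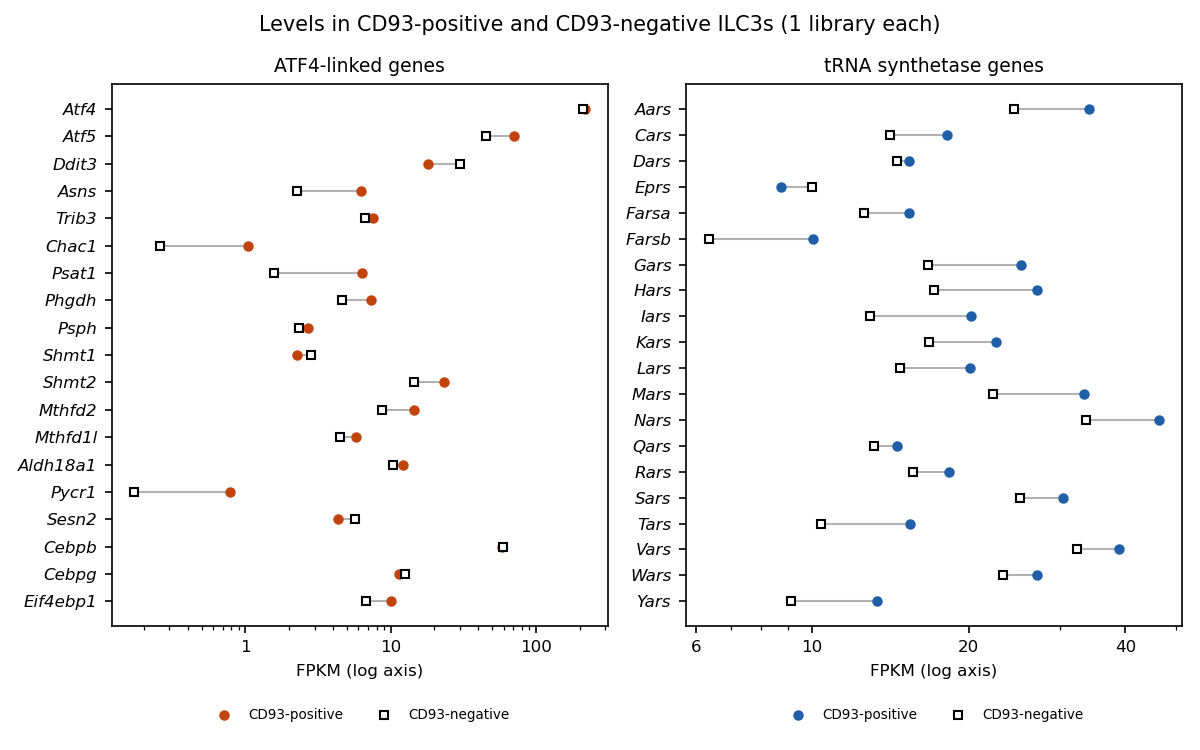
FPKM of each tabulated gene on a log axis in CD93+ (filled circles) and CD93- ILC3s (open squares), 1 library each, with ATF4-linked genes on the left and tRNA synthetases on the right. Psat1 (6.30 and 1.58) and Asns (6.24 and 2.26) have long connecting lines while the Atf4 symbols overlap, and 19 of 20 synthetases have the filled symbol to the right.

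Among the synthetases, 18 of 20 intervals lay above 1 and 1 lay below, against 34.2% and 25.8% of the 9844 measured genes with recovered reads. Farsb, the beta subunit of phenylalanyl-tRNA synthetase, had the highest ratio, 1.59 (1.32 to 1.91), with an FPKM of 10.1 in CD93+ and 6.34 in CD93- ILC3s. Hars was 1.57-fold (1.40 to 1.77; 27.0 and 17.2) and Iars 1.56-fold higher (1.43 to 1.71; 20.3 and 12.95). The subunit partner of Farsb, Farsa, was 1.22-fold higher (1.10 to 1.355; 15.4 and 12.6). Nars, the asparaginyl-tRNA synthetase, had the highest level in both libraries, 46.5 and 33.6, a ratio of 1.38 (1.30 to 1.47). Dars, the aspartyl-tRNA synthetase, had 15.4 and 14.6, with an interval that held 1 (0.953 to 1.17).

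The exception was Eprs (ENSMUSG00000026615.14; chromosome 1, 185363044 to 185428360, plus strand), which encodes the fused glutamyl- and prolyl-tRNA synthetase. It was 1.15-fold lower in CD93+ ILC3s (1.08 to 1.22), with an FPKM of 8.73 and 10.03. The synthetases that carried the promoter motif had ratios of 1.39 for Aars (1.32 to 1.46), 1.502 for Gars (1.355 to 1.67), 1.48 for Tars (1.35 to 1.63), 1.46 for Yars (1.32 to 1.62) and 1.56 for Iars. Their median difference was 0.52, beside 0.27 over the 8 synthetases whose window lacked the motif. Of the 3 measured ATF4-linked genes with the motif, Asns differed by 1.15, Chac1 by 0.70 and Trib3 by 0.14. Their median is thus the value of Chac1, which had 20 and 5 reads and was measured only through its CD93+ value. Over the 14 without the motif the median was 0.18. Over all measured genes the same medians were 0.05 for 215 genes with the motif and 0.04 for 7967 without.

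The remaining synthetases lay between these values. Mars was 1.497-fold higher (1.37 to 1.63; FPKM 33.3 and 22.25), Lars 1.36-fold (1.25 to 1.49; 20.1 and 14.8), Kars 1.34-fold (1.23 to 1.47; 22.6 and 16.8) and Cars 1.29-fold (1.19 to 1.40; 18.2 and 14.1). Sars (1.21-fold), Vars (1.21-fold), Rars (1.18-fold), Wars (1.17-fold) and Qars (1.11-fold) were closer to 1. Wars is also known as an interferon-induced gene. Synthetases fall into class I and class II by the fold of their active site, and the median difference was 0.35 over 9 of class I and 0.46 over 10 of class II, with Eprs holding a domain of each. Among the 20, 8 genes (Dars, Eprs, Iars, Kars, Lars, Mars, Qars and Rars) encode members of the multi-synthetase complex and had a median of 0.31, beside 0.46 for the 12 outside it. The complex groups were set with these values known. In sum the 20 synthetases took 0.177% of the summed FPKM of the CD93+ library and 0.152% of that of the CD93- library.

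**Figure D2:**
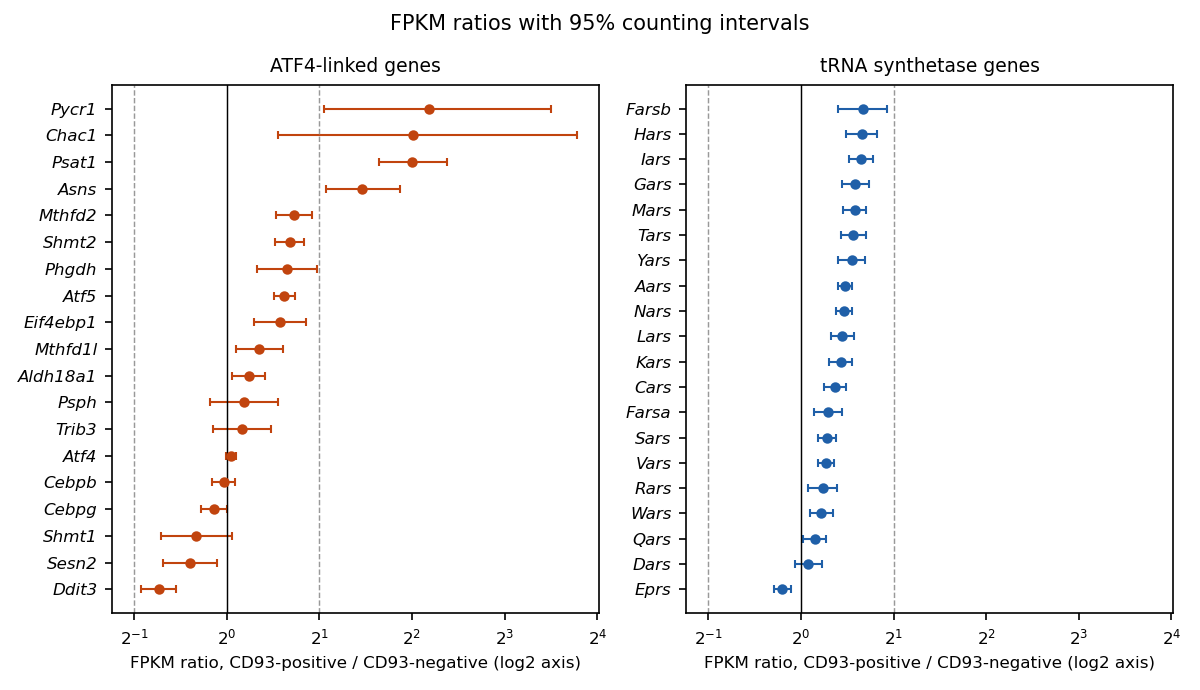
Ratio of FPKM, CD93+ over CD93-, on a log2 axis for each tabulated gene, with 95% exact counting intervals as bars; the solid line marks equality and the dashed lines 2-fold. The synthetase ratios lie between 1.15-fold lower (Eprs) and 1.59-fold higher (Farsb), while ATF4-linked ratios run from 1.66-fold lower (Ddit3) to 4.53-fold higher (Pycr1).

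The size of these differences moved with the scaling. The summed FPKM was 256540 in CD93+ and 227212 in CD93- ILC3s. With both libraries brought to a common sum, as in TPM, the median of all measured genes went from 0.04 to -0.15, and 17 of 20 synthetases were still higher, against 35.0% of measured genes. Atf4, Trib3, Dars and Qars changed direction. Relative to the median of all genes, the synthetase median was 0.38 as deposited and 0.41 with the common sum, and that of the ATF4-linked genes 0.22 and 0.32. The common sum also makes all values larger, so the pseudocount weighs less and more genes count as measured. With both libraries at the mean of their 2 sums, these relative medians were 0.37 for synthetases and 0.175 for ATF4-linked genes.

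Lists of other genes of the pathway went in several directions in the CD93 pair, where 54.4% of all measured genes had higher values and 4.43% were past 2-fold. Of 16 genes for the eIF2 alpha kinases, eIF2 and their regulators, 0 were past 2-fold, 12 had higher values in CD93+ ILC3s (6 with the common sum), and the median was 0.12. Of 17 measured further ATF4 targets and partners, 10 had higher values, near the share of all genes, and 1 was past 2-fold, Ddit4, an mTORC1 inhibitor induced by stress, which was 3.13-fold higher (2.91 to 3.38; FPKM 134.7 and 43.0). The 10 measured amino acid transporters had a median of -0.02, with 4 higher. Of 16 measured mitochondrial synthetases, 10 had higher values (median 0.125), also near that share. Of 18 genes of the unfolded protein response outside ATF4, 17 had higher values (15 with the common sum), with a median of 0.48 and 0 past 2-fold. The 8 measured scaffolds of the synthetase complex and tRNA partners had a median of 0.25, with 7 higher, and the 20 measured genes of amino acid sensing by mTORC1 one of -0.015, with 9 higher.

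Markers of other cells also differed in the CD93 pair. Of 8 exocrine pancreas markers 7 were tabulated, all above 0 in both libraries, and their FPKM summed to 322 in CD93+ and 501.7 in CD93- ILC3s. The sums of T cell markers (4 of 6 tabulated) were 2.37 and 9.78, those of intestinal epithelium (3 of 8) 14.6 and 27.6, those of macrophages, monocytes and dendritic cells (5 of 6) 20.6 and 17.2, and those of fibroblasts and smooth muscle (5 of 7) 30.6 and 13.1. Gsn (19.1 and 8.89) and Lum (11.3 and 3.95) made up nearly all of the fibroblast and smooth muscle sum. Col1a1, Col1a2 and Col3a1 of that list had lower values in CD93+ ILC3s. Cd68 (17.7 and 15.1) made up most of the macrophage, monocyte and dendritic sum, and Itgax of that list was lower in CD93+ ILC3s (0.0711 and 0.247). No tabulated marker was at 0, and none of the 6 B and plasma cell markers was found in the table. The part of these cells in the differences of the synthetases and ATF4-linked genes was not tested.

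**Figure D3:**
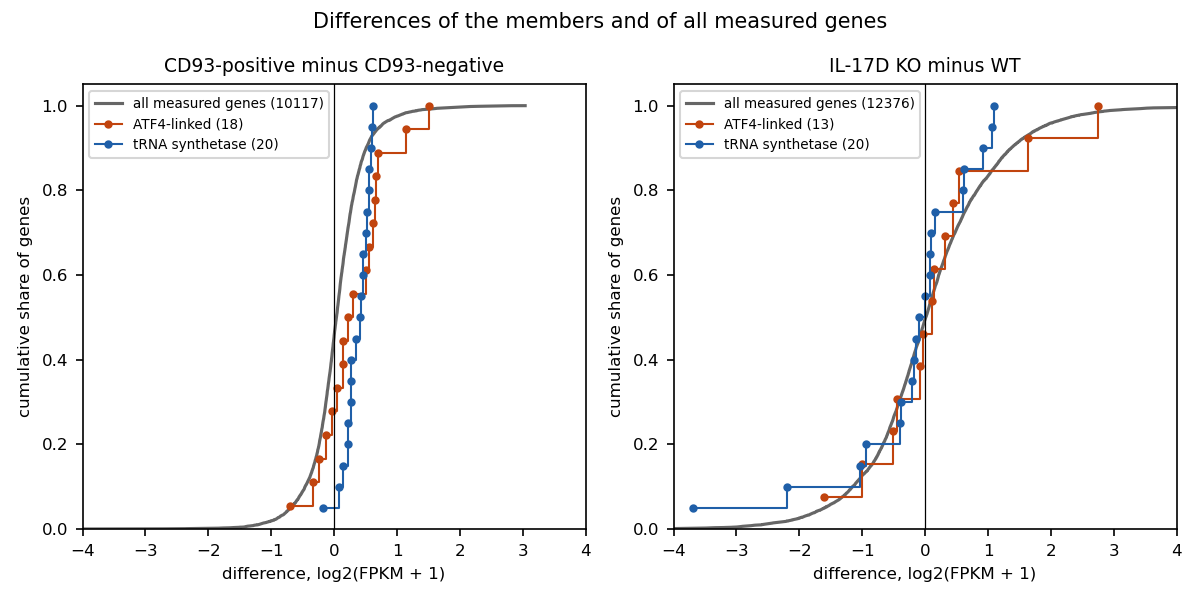
Cumulative share of genes by their difference in log2(FPKM + 1), for all measured genes (grey), ATF4-linked genes (red) and tRNA synthetases (blue), in the CD93 pair (left) and the KO and WT pair (right); the axes end at -4 and 4, and a few grey genes lie beyond. In the CD93 pair the synthetase curve lies to the right of the grey one (medians 0.41 and 0.04), while in the KO and WT pair the medians are -0.04 and 0.01.

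In the KO and WT pair the 40 genes had no common direction, and a few genes differed by very large folds. Of 13 measured ATF4-linked genes, 2 were at least 2-fold higher in the KO library (background 16.6% of 12376 measured genes) and 2 at least 2-fold lower (background 12.7%). Of 20 synthetases, 2 were past 2-fold on the higher side and 3 on the lower, with 10 on each side of 0 (50.5% of all measured genes lay above 0). The 9 members past 2-fold among 33 measured, against a background of 29.3%, are a share near that of all genes. All of these 9 but Cebpg had under 1 FPKM in the library where they were lower. They thus counted as measured only through the library where they were higher, which fixes their sign. The medians were 0.115 for ATF4-linked genes and -0.04 for synthetases. The second turned positive with a common sum (0.10), as the median of all measured genes went from 0.01 to 0.17.

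Factors of the response had lower values in the KO library in all 4 measured cases, but Atf4 was nearly level. It had 67.0 FPKM in KO cells and 68.4 in WT cells, 1.021-fold lower (0.978 to 1.07), and it was higher in KO under the 3 other scalings. Ddit3 was 1.43-fold lower (1.36 to 1.51; 52.1 and 74.5). Cebpg was 2.41-fold lower (2.14 to 2.72; 2.54 and 6.13), and Cebpb had 24 and 46 reads (1.98-fold lower, 1.19 to 3.398). Atf5 had an FPKM of 0.595 and 0.769, below the limit for a measured gene, and its interval held 1. In this pair, then, 3 of the 4 measured factors had intervals on the lower side. Among all 8323 measured genes with recovered reads the share was 41.3%. Of all measured genes, 50.5% had higher values in KO. Cebpb counted as measured only through its WT value, 1.17 FPKM. The grouping by role was made with the values known.

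The enzymes that differed in the CD93 pair did not move together here. Asns was 88.7-fold higher in the KO library (37.7 to 274.4), from 6.22 and 0.0701 FPKM, or 459 and 5 reads. Psat1 had the opposite direction, 81.4-fold lower (27.5 to 398), from 3 reads in KO and 236 in WT. Phgdh, which acts a step before Psat1, had 57 and 21 reads (2.62-fold higher, 1.565 to 4.55), and Psph, the step after it, had 576 and 493 (1.13-fold higher, 0.999 to 1.28). The 3 enzymes of serine synthesis thus spanned both directions within these libraries. Pycr1 (ENSMUSG00000025140.15; chromosome 11, 120635712 to 120643769, minus strand) had 224 reads in the KO library and none in the WT library, a ratio of at least 72.1 against 3 WT reads. Aldh18a1, which acts ahead of Pycr1 in proline synthesis, had 575 and 505 reads, a ratio of 1.10 (0.974 to 1.24).

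The one-carbon enzymes and growth regulators were closer to 1. Shmt2 was 1.47-fold (1.26 to 1.71; FPKM 5.146 and 3.502), Mthfd1l 1.37-fold (1.15 to 1.63; 2.68 and 1.95) and Eif4ebp1 1.57-fold higher in the KO library (1.33 to 1.85; 6.58 and 4.19). Mthfd2 had 2.75 and 2.99, with an interval that held 1. Chac1 and Shmt1 had few reads, 19 against 0 for Chac1, at least 6.12-fold higher, and 0 against 14 for Shmt1, at least 4.83-fold lower.

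**Figure D4:**
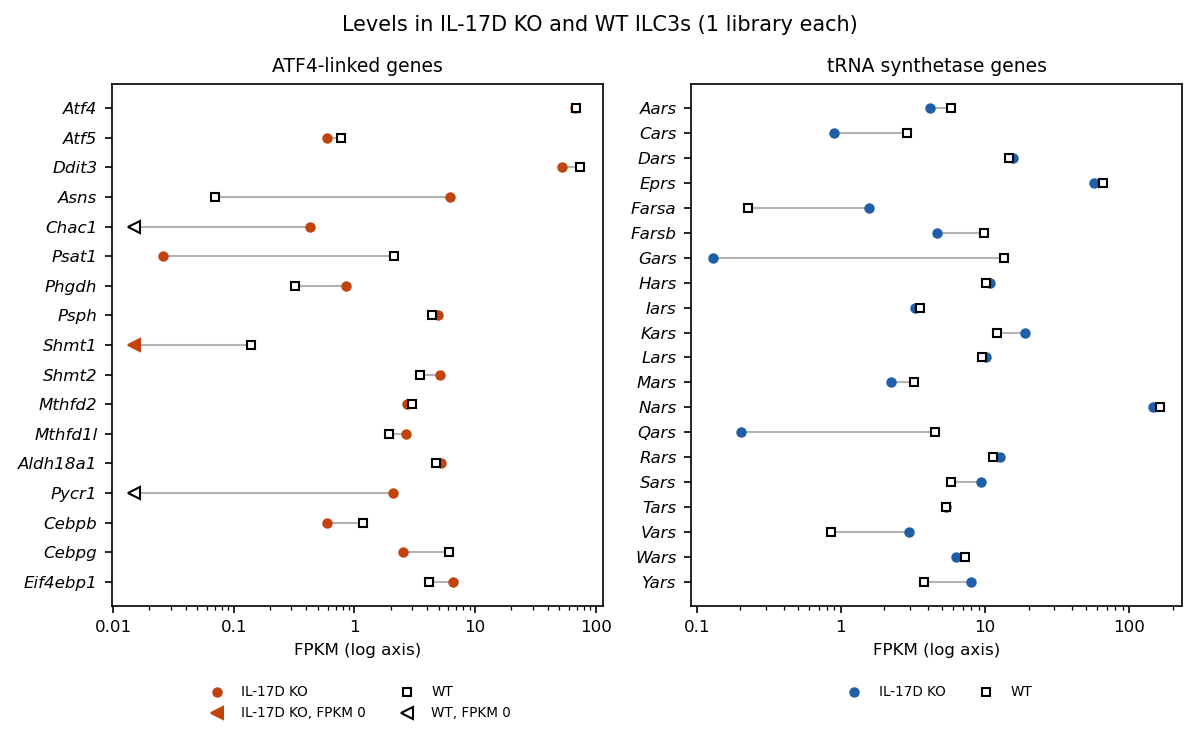
FPKM of each tabulated gene on a log axis in IL-17D KO (filled circles) and WT ILC3s (open squares), 1 library each; triangles at the left edge stand for an FPKM of 0. Most pairs of symbols lie close together, while Asns, Psat1, Pycr1, Gars and Qars are far apart in both directions.

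Among the synthetases, Gars (ENSMUSG00000029777.10; chromosome 6, 55038007 to 55079500, plus strand), which charges glycine, stood farthest apart, at 0.131 FPKM in KO cells and 13.5 in WT cells. Qars, the glutaminyl-tRNA synthetase, was 22.1-fold lower in the KO library (15.8 to 31.8; 0.203 and 4.49), and Cars, the cysteinyl-tRNA synthetase, 3.21-fold lower (2.68 to 3.87; 0.889 and 2.85). On the other side, Farsa was 6.83-fold higher (4.55 to 10.6; 1.56 and 0.228) and Vars, the valyl-tRNA synthetase, 3.47-fold higher (2.84 to 4.27; 2.97 and 0.854). Farsb, whose product forms an enzyme with that of Farsa (ENSMUSG00000003808.18; chromosome 8, 84856989 to 84869257, plus strand), was 2.11-fold lower (1.845 to 2.41; 4.65 and 9.80). Both subunits of a single enzyme thus had opposite directions in this pair, whereas both were higher in CD93+ ILC3s. Yars was 2.13-fold higher as a ratio (1.93 to 2.36; 8.02 and 3.76), with a difference of 0.92 that stayed under the limit.

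The synthetases with the highest levels, Nars and Eprs, differed little. Nars stood at 146.7 FPKM in KO cells and 162.5 in WT cells, and Eprs at 56.6 and 65.7, 1.16-fold lower in KO (1.14 to 1.18; 27681 and 31020 reads). Dars was 1.07-fold (1.00 to 1.15), Rars 1.12-fold (1.03 to 1.22), Kars 1.56-fold (1.46 to 1.66) and Sars 1.62-fold higher (1.48 to 1.78). Aars was 1.40-fold (1.29 to 1.52), Mars 1.44-fold (1.20 to 1.73) and Wars 1.15-fold lower (1.03 to 1.29). Iars (1.08-fold lower, 0.953 to 1.23) and Tars (1.00-fold, 0.909 to 1.10) had intervals that held 1. For Hars (10.8 and 10.2), Lars (10.2 and 9.56) and Nars, whole reads were not recovered in this pair, so no interval is given. Of the 17 synthetases with recovered reads, 7 intervals lay above 1 and 8 below, against 46.0% and 41.3% of the 8323 measured genes with recovered reads.

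In the KO and WT pair, genes with fewer reads were more often past 2-fold. Among those with recovered reads, 7 of 14 members with 100 to 1000 reads over the pair were past 2-fold, against 40.8% of 3668 genes in that range. Of 14 members with 1000 to 10000 reads 2 were past 2-fold, Gars and Cebpg, against 13.5% of 3577 genes. Asns, Psat1, Pycr1, Qars, Cars, Farsa and Vars all fell in the lower range. In the CD93 pair the same ranges held 12 and 24 members, of which 2 and 0 were past 2-fold, and 4.55% and 3.74% of all genes were; with 10000 reads and more the share was 4.82%, so it did not fall steadily there. Within each of these ranges of the KO and WT pair, the share of members past 2-fold was thus near the share of all genes.

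**Figure D5:**
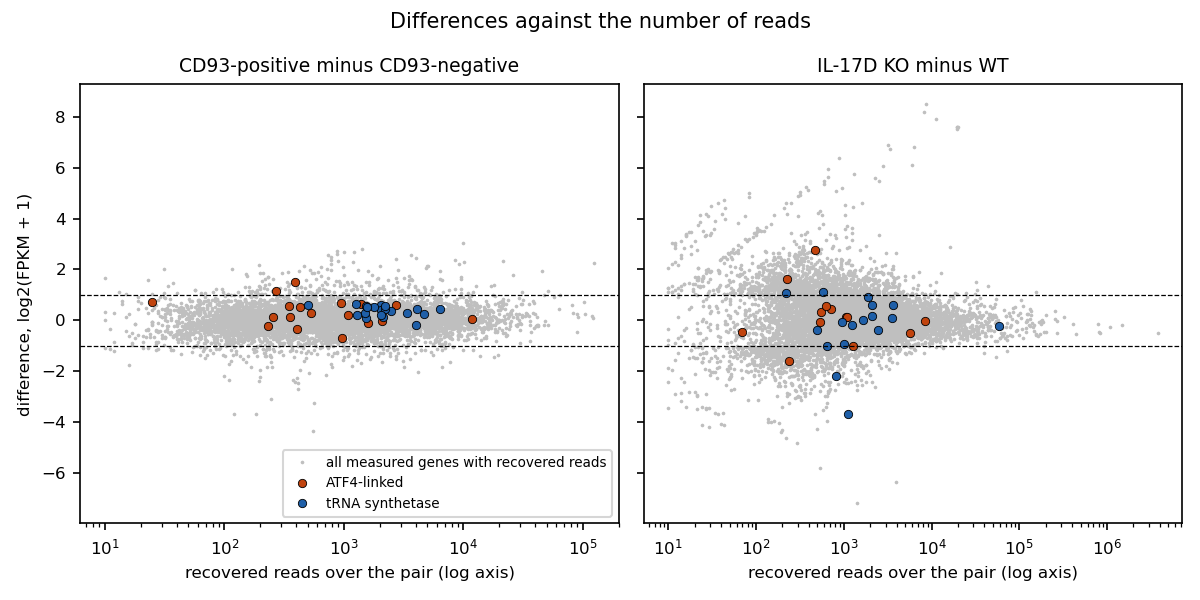
Difference in log2(FPKM + 1) against the reads recovered over the pair (log axis), for all measured genes with recovered reads (grey), ATF4-linked genes (red) and tRNA synthetases (blue), in the CD93 pair (left) and the KO and WT pair (right); dashed lines mark 2-fold. The grey cloud is wider on the right, where 40.8% of genes with 100 to 1000 reads are past 2-fold against 4.55% on the left.

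Markers of other cells stood far apart in this pair. All 8 exocrine pancreas markers were above 0 in the KO library, with a sum of 1378, and summed to 0.318 in WT, where Amy2a1, Cela2a, Cpb1, Ctrl and Pnlip were at 0. Sums of the other lists in KO and WT were 1056 and 294.9 for intestinal epithelium (6 of 8 markers tabulated; Reg4 at 0 in KO), 2789 and 1117 for B and plasma cells (5 of 6), 272 and 134.6 for T cells (6 of 6), 55.5 and 15.6 for macrophages, monocytes and dendritic cells (3 of 6), and 0.503 and 6.89 for fibroblasts and smooth muscle (6 of 7; Lum at 0 in KO). Defa24 (887 and 243) made up most of the epithelial sum, while Epcam was nearly level (2.25 and 2.35). Iglc1 (2579 and 1019) made up most of the B and plasma cell sum. Cd8a (0.631 and 1.465) and Cd209a (0.0234 and 3.85) were lower in KO. The other tabulated markers of the T cell list and of the macrophage, monocyte and dendritic list were higher. The part of these other cell types in the differences of Asns, Pycr1, Gars and the other members was not tested.

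Most of the other pathway lists also had members on both sides in the KO and WT pair, where the background was 16.6% past 2-fold on the higher side and 12.7% on the lower. Over all measured genes, 50.5% had higher values in KO as deposited and 57.3% with the common sum. Of 15 measured genes for the eIF2 alpha kinases, eIF2 and their regulators, 1 was at least 2-fold higher and 2 lower (median -0.17). Of 14 measured further ATF4 targets and partners, 11 had lower values in KO (median -0.19), while 7 of 18 had higher values with the common sum. At least 2-fold higher were 2, and 3 were at least 2-fold lower. Among the latter were Gadd45a, a stress gene of growth arrest, 6.92-fold lower (5.76 to 8.38; FPKM 2.77 and 19.2), and Clpp, a mitochondrial protease subunit (4.265 and 26.1). The 8 measured amino acid transporters had 0 past 2-fold and a median of 0.21. Of 15 measured mitochondrial synthetases, 2 were higher and 4 lower. All 8 measured scaffolds of the synthetase complex and tRNA partners had lower values in KO (7 with the common sum), with 0 past 2-fold and a median of -0.27. Of 18 genes of the unfolded protein response outside ATF4, 10 had higher values. At least 2-fold higher was 1, Edem1, which acts in the disposal of misfolded proteins (82.6 and 10.4). Of 15 measured genes of amino acid sensing by mTORC1, 8 had higher values. At least 2-fold higher were 2, Nprl2 (341 reads and 1) and Rragc (10.9 and 3.66).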

How the data were processed

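RNA of 4 groups of sorted mouse ILC3s, with 1 library each, was measured by RNA-seq. The deposited values are FPKM, computed by the authors; per the submitters' processing notes the build was mm10 and the tools were Bowtie2, featureCounts of Subread, edgeR and DESeq2, with no version, setting or gene annotation named, nor how reads that match several genes were counted. Single and joint tables held equal values in all 15242 and 12546 rows. Reads were recovered as FPKM times union exon length (GENCODE M21) over a constant of each library, and of the values above 0 whose gene had a length, 91.9% to 98.2% came out whole within 0.02 reads; a length was found for 73.3% and 73.4% of the values above 0 in KO and WT and for 98.8% in each CD93 library. Recovered reads summed to 20949057 (KO), 21663339 (WT), 11412704 (CD93+) and 10751745 (CD93-). For Ddit3, with 2 gene models, the model that gave whole reads was used. PCR reads are not independent molecules. With 3 reads as the floor, a fold against 0 reads is a bound. With 1 library per group there is no p-value and no replicate spread.

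All 40 members are named; of the pathway lists, those past 2-fold with an FPKM of at least 5, at most 4 per list and direction; some genes of the lists are not reported here. The members and lists were chosen with earlier results of these data known, and the enzyme roles and synthetase complex groups with these values known. Pseudocounts of 0.1 and 5, no filter or a filter at 5 FPKM, a limit of 3-fold and 3 scalings were tried. Python 3.11.15, numpy 2.4.6, scipy 1.17.1 and pandas 2.3.3 were used.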

Additional observations from a re-analysis of the deposited data

How the results depend on the processing

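Counts of members past 2-fold rested on few genes and moved with the settings. In the CD93 pair the 2 ATF4-linked genes past 2-fold became 0 with a pseudocount of 5 or a 3-fold limit and 4 with a common sum, where Chac1 and Pycr1 joined them (1.24 and 1.20 in log2). The common sum also makes all values larger, so the pseudocount weighs less there. With both libraries at the mean of their 2 sums the count stayed at 2. The synthetase median of 0.41 was 0.26 with the common sum and 0.25 with both libraries at the mean of their 2 sums, where the ATF4-linked median was 0.056. In the KO and WT pair, the 2 higher and 2 lower ATF4-linked genes and the 2 higher and 3 lower synthetases became 1, 0, 0 and 1 with a pseudocount of 5 and 1, 1, 0 and 1 with an FPKM of at least 5. Lower ATF4-linked genes numbered 1 with each of the 3 scalings and with the 3-fold limit, where higher synthetases numbered 0. The KO and WT medians were 0.28 (ATF4-linked) and 0.10 (synthetases) with the common sum, and the synthetase median was 0.095 with the mean of the sums. These scalings raise KO values relative to WT and lower CD93+ values relative to CD93- by construction. Over all measured genes, 28.4% of those past 2-fold in the CD93 pair were higher with the common sum and 36.9% with the mean of the sums, against 56.2% as deposited. No member past 2-fold changed sign under the settings run on single members. No paired analysis was possible because each group has 1 library. Members with under 100 reads over a pair, such as Chac1, had wide intervals.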

Other observations

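Between the pairs, which come from separate libraries and tables, 9 of the 12 ATF4-linked genes measured in both had the same sign in KO minus WT as in CD93+ minus CD93-, and 3 the opposite. Of the 20 synthetases, 11 had the same sign and 9 the opposite, and of all 7595 genes measured in both 48.4% had the same sign. Asns was higher in the KO and in the CD93+ library, while Psat1 was lower in KO and higher in CD93+ ILC3s. In the KO and WT pair the 8 measured synthetases without TGATGNAA in their window had a median of -0.06, and the 5 with it one of -0.09. Among these 5, 2 had higher values in KO, and Gars differed by -3.68. Over all measured genes the medians were -0.03 for 182 genes with the motif and 0.05 for 6511 without. Of these, 89 and 3397 had higher values in KO. The 2 measured ATF4-linked genes with the motif, Asns and Pycr1, differed by 2.75 and 1.64. Both counted as measured only through their KO values (Pycr1 had 0 reads in WT), which fixes their sign. The 10 ATF4-linked genes without the motif had a median of -0.06.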
